A study of Mus musculus with 9 samples.

Results

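Amy1 and Rnpc3, neighbouring mouse genes on chromosome 3 that overlap at their ends, were followed in the seminal vesicle at 3, 13 and 21 months of age. They are 2 of the 53379 genes in the deposited count table. Amy1 encodes the salivary type of alpha-amylase and was chosen for its change between 3 and 13 months in these same libraries, so its values in that comparison are a description without a test. Rnpc3 encodes the 65K protein of the minor spliceosome and was chosen by position alone, as a check for transcription that runs on from one gene into the next.

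Total RNA was sequenced from the seminal vesicle, a male accessory gland whose secretions make up much of the seminal fluid, at each age in 3 libraries, 9 in all. The groups differ by age only as far as the labels go, since strain and treatment are not given in the sources used here. The labels do not say whether replicates are separate animals, so p-values measure only the spread between these libraries, which may be technical. Levels are given as CPM, reads per 1e+06 counted reads, with library sizes scaled by TMM, which trims extreme genes before it matches the libraries. In a bulk sample, fewer cells of a type and less RNA per cell cannot be told apart.

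Alpha-amylase cuts starch and glycogen into short sugars. The parotid gland and the liver of the mouse express Amy1, whereas the pancreas expresses the Amy2 genes that lie beside it. Amy1 is a textbook case of alternative first exons. An upstream start is used strongly in the parotid gland and a downstream start is used in the liver, and both give the same protein.

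Amy1 (ENSMUSG00000074264) lies on the minus strand of GRCm38 at chr3:113555710-113606699 and has 5 annotated transcripts in GENCODE M21. One transcript starts at position 113577830 (the upstream start below), and another starts 3068 bases downstream at 113574762 (the downstream start). These correspond in layout to the parotid and liver starts. Both transcripts join exon 2 and carry the same coding sequence of 1533 bases, or 511 codons. The deposited values are sums per gene, so reads from either start could not be separated here. The 150 bases before each start, taken from RefSeq sequence of build GRCm38.p6, are shown because they precede the starts whose use differs between parotid gland and liver. Capitals mark TATAAA, the TATA box, and TGTTCT, the reverse strand of AGAACA, a core of the element bound by androgen and glucocorticoid receptors.
Before the upstream start, chr3:113577831-113577980, minus strand: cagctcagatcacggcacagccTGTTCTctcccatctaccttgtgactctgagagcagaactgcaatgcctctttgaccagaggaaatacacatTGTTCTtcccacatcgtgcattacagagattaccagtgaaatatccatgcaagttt
Before the downstream start, chr3:113574763-113574912, minus strand: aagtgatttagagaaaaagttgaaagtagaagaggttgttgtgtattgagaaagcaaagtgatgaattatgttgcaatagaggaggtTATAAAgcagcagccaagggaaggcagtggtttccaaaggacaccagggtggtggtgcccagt

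TGTTCT began 128 and 56 bases before the upstream start and was not found before the downstream start. TATAAA began 63 bases before the downstream start and was not found before the upstream start. The E-box CAGCTG was found in neither window. Both strands were searched, and none of the 3 motifs overlaps another here. Among 32851 RefSeq promoter windows of the same length, 9.62% held AGAACA on either strand, 7.57% held TATAAA and 8.39% held CAGCTG. A match describes the letters only.

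Rnpc3 (ENSMUSG00000027981, chr3:113605067-113630149) lies upstream of Amy1 on the same strand and has 8 annotated transcripts. The genes share 1633 bases, from 113605067 to 113606699. The overlap comes from 1 Amy1 transcript, which starts 28869 bases before the upstream start, inside the last exon of Rnpc3. Their exons share 1128 bases, which make up 32.7% of the 3446 exonic bases of Amy1 and 17.0% of the 6627 exonic bases of Rnpc3. The other 2318 exonic bases of Amy1 lie outside Rnpc3. How the counting treated reads in the shared stretch is not given in the sources used here.

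**Figure D1:**
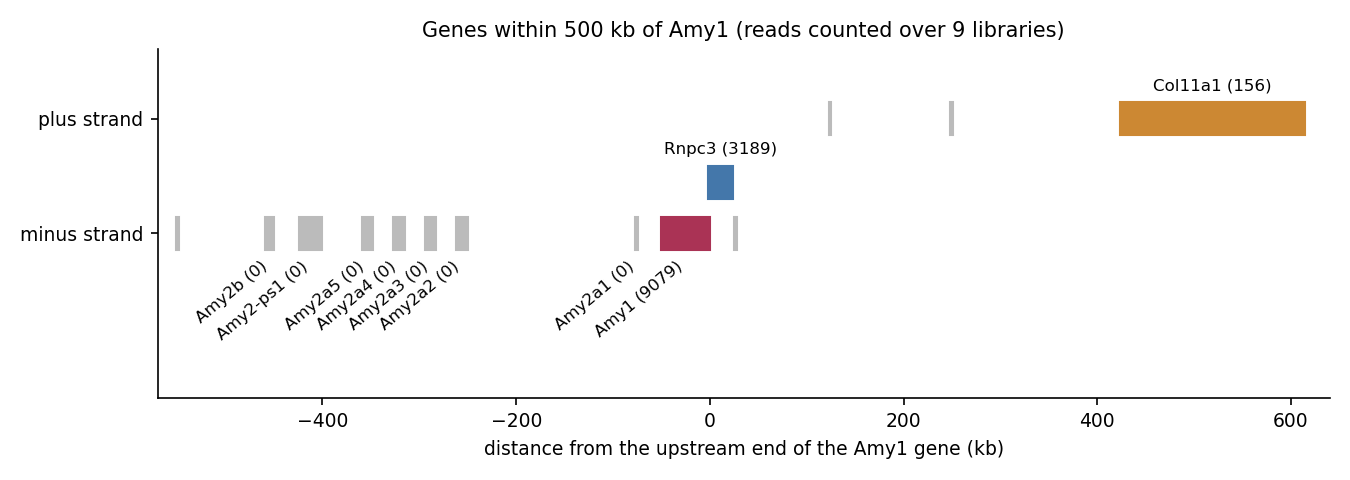
Genes annotated near Amy1, with distance in kb from its upstream end on the x axis and strand on the y axis; Rnpc3, also on the minus strand, is drawn on a raised row so that its overlap with Amy1 shows. The number beside a name is the reads counted over 9 libraries, and unlabelled grey boxes are predicted pseudogenes. Of 14 genes, 3 had any read, and the 7 other amylase genes and pseudogenes had 0.

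Amy1 was a weakly expressed gene at 3 months and one of the more abundant transcripts at both older ages. At 3 months its level was 3.40, 4.75 and 4.62 CPM in replicates 1, 2 and 3, from 59, 67 and 67 reads. At 13 months it was 93.3, 85.6 and 24.2 CPM, from 1578, 1641 and 540 reads. At 21 months it was 48.0, 82.6 and 70.1 CPM, from 1292, 2292 and 1543 reads. Every library of 13 or 21 months lay above every library of 3 months, whereas the 13-month and 21-month values overlapped. The share of all tested genes separated in this way was not counted, and Amy1 was chosen on the libraries of 3 and 13 months.

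**Figure D2:**
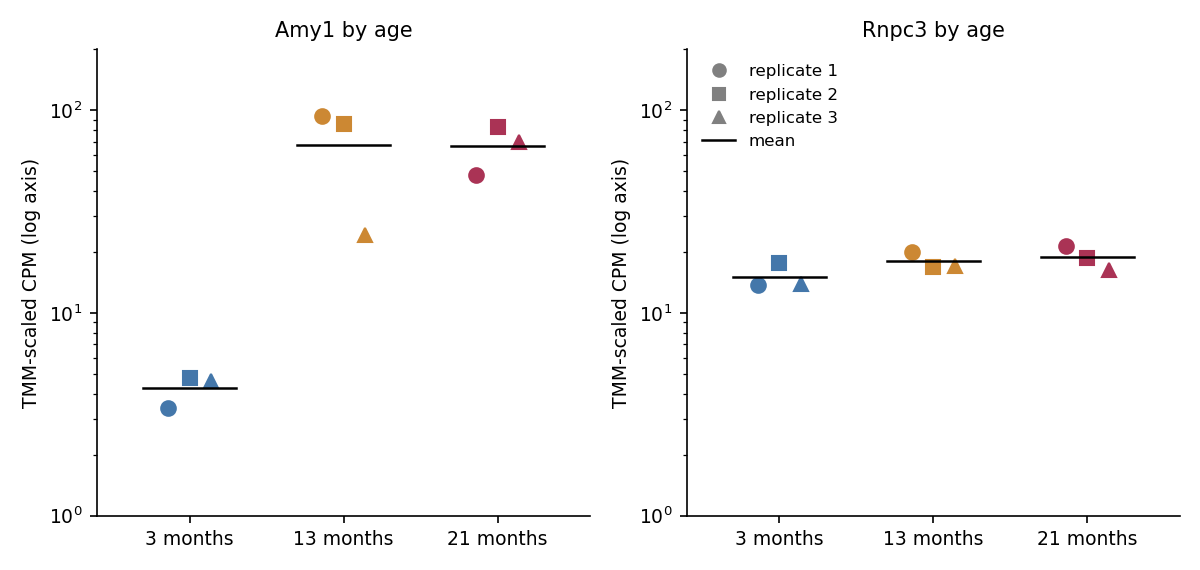
TMM-scaled CPM of Amy1 (left) and Rnpc3 (right) on a log axis, by age, with 1 point per library and the mean as a bar. Amy1 lies between 3.40 and 4.75 CPM at 3 months and between 24.2 and 93.3 CPM at the older ages, while Rnpc3 stays between 13.8 and 21.5 CPM in all 9 libraries.

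The mean level of Amy1 was 4.26 ± 0.748 CPM at 3 months (SD, n = 3 libraries), 67.7 ± 37.9 at 13 months and 66.9 ± 17.5 at 21 months. Per exonic kb the mean level was 1.24 ± 0.217, 19.6 ± 11 and 19.4 ± 5.09 CPM. On that scale 36.6% of 16051 tested genes with a known length lay below Amy1 at 3 months, 94.7% at 13 months and 94.9% at 21 months. It moved from rank 10169 to ranks 851 and 819.

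The log2 fold change of Amy1 at 13 against 3 months was 3.99 ± 0.487 (SE), or 15.9-fold. At 21 against 3 months it was 3.98 ± 0.487, or 15.7-fold with a 95% interval of 7.40 to 33.5. The adjusted p was 0.0153 in the edgeR quasi-likelihood test with Benjamini-Hochberg adjustment over 16067 genes. That test shares the 3-month libraries on which Amy1 was chosen and is not independent of the choice. Amy1 was called at 21 against 3 months and Rnpc3 was not, against a background of 2.02% of all tested genes called there, 1.26% as higher and 0.766% as lower. The call ended when any 1 of the 3-month libraries was left out, while the size of the difference stayed near the full value. Without 3-month replicate 1 the log2 fold change was 3.83 (edgeR adjusted p = 0.119). Without replicate 2 it was 4.05 (0.103), and without replicate 3 it was 4.03 (0.0901). Over all genes, 0 to 4 were called in those fits, against 325 in the full fit.

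Amy1 at 21 months could not be placed above or below 13 months. The log2 fold change was -0.02 ± 0.413 (SE), a ratio of 0.989 with a 95% interval of 0.521 to 1.88, and the edgeR adjusted p was 0.992. In that comparison 0.00622% of all tested genes were called. The test shares the 13-month libraries on which Amy1 was chosen.

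Amy1 varied most between the libraries of 13 months. At 13 months replicate 3 held 21.8 reads per 1e+06 of its own total (95% Wilson interval 20.02 to 23.7), against 76.0 (72.4 to 79.9) in replicate 1 and 84.5 (80.5 to 88.7) in replicate 2. At 21 months the values on the same scale were 75.4 (71.4 to 79.6), 110.2 (105.8 to 114.8) and 68.5 (65.2 to 72.0). These intervals hold the counting error of 1 library alone. They take each read as a separate molecule, though some reads may repeat a molecule. After TMM scaling the highest 13-month library stood 3.86-fold above the lowest, against 1.72-fold at 21 months and 1.40-fold at 3 months. The same span for Rnpc3 was 1.19-fold, 1.32-fold and 1.28-fold. Replicate 3 of 13 months, the lowest of the older libraries, lay above all 3 libraries of 3 months. Amy1 was chosen on the libraries of these ages, so this is a description only.

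Rnpc3 did not pass the test in any comparison. Its product binds the U12 small nuclear RNA in the particle that recognises the rare minor class of introns. At 3 months its level was 13.8, 17.6 and 13.9 CPM in replicates 1, 2 and 3. At 13 months it was 20.04, 16.8 and 17.1 CPM, and at 21 months 21.5, 18.7 and 16.3 CPM. The ages overlapped in all 3 comparisons.

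Mean Rnpc3 was 15.1 ± 2.16 CPM at 3 months (SD, n = 3 libraries), 18.0 ± 1.78 at 13 months and 18.8 ± 2.63 at 21 months. The log2 fold change at 13 against 3 months was 0.25 ± 0.147 (SE), or 1.19-fold with a 95% interval of 0.948 to 1.5 (edgeR adjusted p = 0.784), where 0.454% of all tested genes were called, 0.0436% as higher and 0.411% as lower. At 21 against 3 months it was 0.32 ± 0.146, or 1.25-fold with an interval of 0.994 to 1.57 (0.215). With library totals in place of TMM that value became 0.96 (0.0208), a scaling that moved the median of all genes by 0.61. At 21 against 13 months Rnpc3 differed by 0.07 ± 0.145, or 1.05-fold with an interval of 0.836 to 1.31 (0.856).

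The balance between the neighbours turned over between 3 months and the later ages. Per Rnpc3 read, the 3-month libraries held 0.247, 0.270 and 0.332 Amy1 reads. The 13-month libraries held 4.65, 5.10 and 1.41, and the 21-month libraries 2.23, 4.42 and 4.31. This ratio is taken within a library and does not depend on how library sizes are scaled. Per exonic kb, Amy1 stood at 0.475 to 0.638 of Rnpc3 at 3 months and at 2.71 to 9.80 times Rnpc3 in the 6 older libraries.

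**Figure D3:**
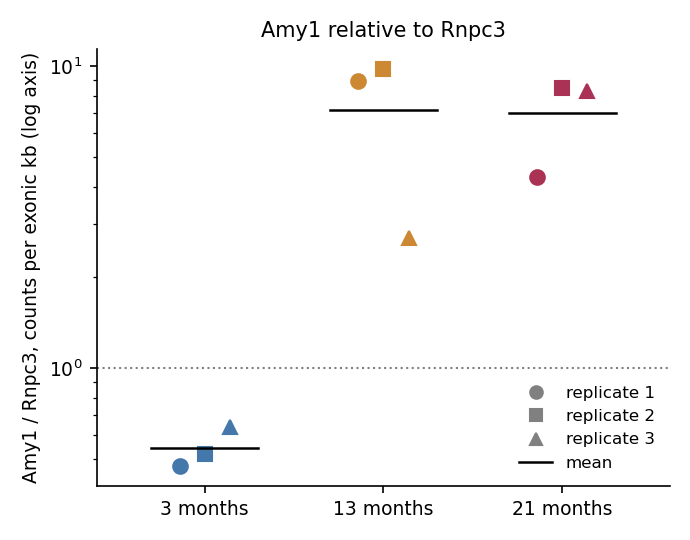
Ratio of Amy1 to Rnpc3 within each library, in counts per exonic kb on a log axis, with the mean per age as a bar and equality as a dotted line. The 3-month libraries lie below the line, at 0.475 to 0.638, and the 6 older libraries above it, at 2.71 to 9.80.

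As measured facts on transcription running from Rnpc3 into Amy1, Amy1 held more reads than Rnpc3 in each of the 6 older libraries. The 95% intervals of the Rnpc3 difference from 3 months ended at 1.5-fold at 13 months and 1.57-fold at 21 months, beside 15.9-fold and 15.7-fold for Amy1. Where within the gene the Amy1 reads fall was not analysed here, and read-through itself was not tested. Beyond Rnpc3, the only other gene within 500 kb of Amy1 with any read was Col11a1, a fibrillar collagen gene on the opposite strand. It held 6, 4 and 7 reads at 3 months, 1, 6 and 22 reads at 13 months, then 21, 71 and 18 at 21 months.

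No other amylase gene was counted. The 5 protein-coding genes Amy2a1, Amy2a2, Amy2a3, Amy2a4 and Amy2a5 and the pseudogenes Amy2b and Amy2-ps1 held 0 reads in all 9 libraries. A count of 0 allows up to 3 reads, or 0.121 to 0.181 CPM in 1 library. The Amy2 copies are too alike for every 0 to be read as absence. All 100-base windows of the Amy2a2, Amy2a3 and Amy2a4 transcripts recur in another Amy2 gene, and 94.6% of those of Amy2a1 do. How reads with several matching places were counted is not given in the sources used here. Of the 3616 windows of Amy2a5, 52.6% are its own, and it too was at 0.

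Amy1 itself can be told from the Amy2 genes by sequence. Of the 100-base windows along the Amy1 transcript with the upstream start, 0 of 1886 recur in any annotated transcript of another gene. At 50 bases 52 of 1936 do, all in Amy2 genes. Its coding sequence matches that of Amy2a5 at 1370 of 1524 aligned bases, or 89.9%, and the longest identical run is 73 bases. The stretch where they differ most, coding bases 346 to 405, is shown because a read across it tells Amy1 from Amy2a5. The other Amy2 genes were not compared over this stretch. Capitals mark the 15 bases of 60 that differ, and positions count from the A of the start codon in the GENCODE M21 transcripts.
Amy1: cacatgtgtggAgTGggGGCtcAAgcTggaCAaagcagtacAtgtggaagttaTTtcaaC
Amy2a5: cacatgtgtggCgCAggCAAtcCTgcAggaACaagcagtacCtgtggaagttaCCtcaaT

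Most markers of the tissues known for amylase were at 0 at 3 and 13 months, and fewer were at 0 at 21 months. Of 16 salivary acinar markers in the table, 12 were at 0 in every library of 21 months and 13 at each earlier age. Bpifa2, Smr3a, Smr2, Prol1, Dcpp1, Dcpp2, Dcpp3, Car6, Prb1, Prpmp5, Pip and Cst10 were at 0 throughout. The summed level of the list ran from 97.0 to 109 CPM of library totals at 3 months, 96.6 to 120 at 13 months and 106 to 117 at 21 months. Nearly all of it was Bhlha15, a transcription factor of secretory cells that was counted in every library, followed by Lpo, lactoperoxidase. After TMM scaling, which these sums do not use, Bhlha15 stood at 59.8 to 118.9 CPM and Lpo at 2.73 to 10.4 CPM. The 59.8 CPM belonged to 21-month replicate 1, with 1611 reads and the largest TMM factor, 1.637.

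Of 21 pancreatic acinar markers, 15, 17 and 12 were at 0 at 3, 13 and 21 months, among them Prss1, Cela2a, Cpa1 and Pnlip at all ages. Their sum was at most 1.02 CPM at 3 months and 0.819 at 13 months, and 0.533 to 173 at 21 months, where replicate 1 held 2938 reads of Pnliprp1. The sum of 8 liver markers was at most 0.149, 0.155 and 0.992 CPM, with 6, 6 and 4 of them at 0. Ttr, Serpina1a and Fgb were at 0 throughout, while Alb held 12 and 8 reads in 21-month replicates 1 and 2.

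Of the seminal vesicle markers, 11 of 11 were detected at each age. So were 9 of 9 adipocyte markers, so detection alone says little about the tissue label. The seminal vesicle markers took 57.3 to 60.2% of counts at 3 months, 56.5 to 61.9% at 13 months and 22.2 to 56.0% at 21 months. The lowest share was in 21-month replicate 1, which also held 300932 reads of Tgm4 and 108258 of Pbsn, both prostate genes, and had the lowest Amy1 of its age after TMM scaling, though not by library totals. The prostate list took 0.817 to 0.975% of counts at 3 months, 0.870 to 0.984% at 13 months and 0.662 to 2.80% at 21 months, and 4, 2 and 0 of its 10 markers were at 0. Adipocyte markers, 9 of 9 detected at each age, summed to 11.3 to 36.5 CPM at 3 months, 12.0 to 19.4 at 13 months and 14.7 to 3440 at 21 months. Plin4 held the most reads of this list in each library of 3 and 13 months, at 198 to 416. At those ages Adipoq, Plin1 and Cidec had reads only in 3-month replicate 2 and 13-month replicate 1. The 3440 CPM belonged to 21-month replicate 2, with 24234 reads of Car3 and 16208 of Fabp4. Epididymis markers summed to 27.6 to 44.2, 41.1 to 57.5 and 58.4 to 561 CPM, with 7, 7 and 1 of 9 at 0. Nearly all of the sum at 3 and 13 months was Spink8. The 561 CPM belonged to 21-month replicate 1, with 7204 reads of Crisp1 and 2396 of Spink8. Lcn5, Lcn8, Lcn9 and Defb20 held only 3, 6, 3 and 3 reads over the 9 libraries. With replicate 3 as the only 21-month library, Amy1 at 21 against 3 months had a log2 fold change of 4.05 (edgeR adjusted p = 0.0214).

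Among the enzymes that act on the products of amylase, Mgam, followed here by its values, ran close to Amy1 over the libraries. The alpha-glucosidases release glucose from short sugars, and Mgam, maltase-glucoamylase (chromosome 6, 40628831 to 40769123), is best known from the small intestine. Its level was 0.518, 0.497 and 0.345 CPM at 3 months, 24.1, 10.4 and 4.79 CPM at 13 months and 1.08, 7.96 and 7.58 CPM at 21 months. Every older library lay above every 3-month library, but the share of all tested genes that do so was not counted. Like Amy1 after TMM scaling, Mgam was lowest in replicate 3 at 13 months and in replicate 1 at 21 months. By library totals the lowest Amy1 of 21 months was in replicate 3, at 68.5 CPM beside 75.4 in replicate 1.

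Mgam did not pass the threshold. Its log2 fold change was 4.82 ± 0.910 (SE) at 13 against 3 months, or 28.2-fold with a 95% interval of 6.86 to 116.0 (edgeR adjusted p = 0.0700). At 21 against 3 months it was 3.58 ± 0.915 (0.0702), and at 21 against 13 months -1.24 ± 0.679 (0.409). At 13 against 3 months it was called by DESeq2 (2.26e-05), in the fit of the 6 libraries of these ages alone (0.00776) and when 21-month replicate 1 was left out of the shared fit (0.0107). It was not called by limma-voom (0.570), with a replicate block (0.182) or without 3-month replicates 1, 2 or 3 (0.373, 0.303 and 0.329). Over 19 alternatives 6 called Mgam there, and 4 at 21 against 3 months. The latter include DESeq2 (0.00256) and the fit without 21-month replicate 1, at 4.08 (0.0255), but not limma-voom (0.273). The neighbouring pseudogene Mgam2-ps stood at 0.604 ± 0.0762 CPM at 3 months (SD, n = 3 libraries), 1.48 ± 0.885 at 13 months and 1.83 ± 1.43 at 21 months. Reads shared between Mgam and its near copy could not be separated here.

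Gaa was higher at 21 than at 3 months by a small factor. Gaa (chromosome 11, 119267887 to 119285454) encodes the acid alpha-glucosidase that breaks down glycogen in lysosomes. Its level was 26.3, 30.1 and 26.9 CPM at 3 months, 33.0, 36.7 and 31.3 CPM at 13 months and 44.4, 44.2 and 39.3 CPM at 21 months. The ages did not overlap, but the share of all tested genes separated in this way was not counted. The log2 fold change at 21 against 3 months was 0.62 ± 0.106 (SE), or 1.54-fold (edgeR adjusted p = 0.0308). The call ended without 3-month replicates 1, 2 or 3 (0.178, 0.127 and 0.146), without 13-month replicate 1 (0.0523) and without 21-month replicate 2 (0.0693). It also ended in the fit of 6 libraries (0.0605) and with replicate 3 as the only 21-month library (0.190, with a log2 fold change of 0.51). At 13 against 3 months the log2 fold change was 0.28 (0.575), and at 21 against 13 months 0.34 (0.217).

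**Figure D4:**
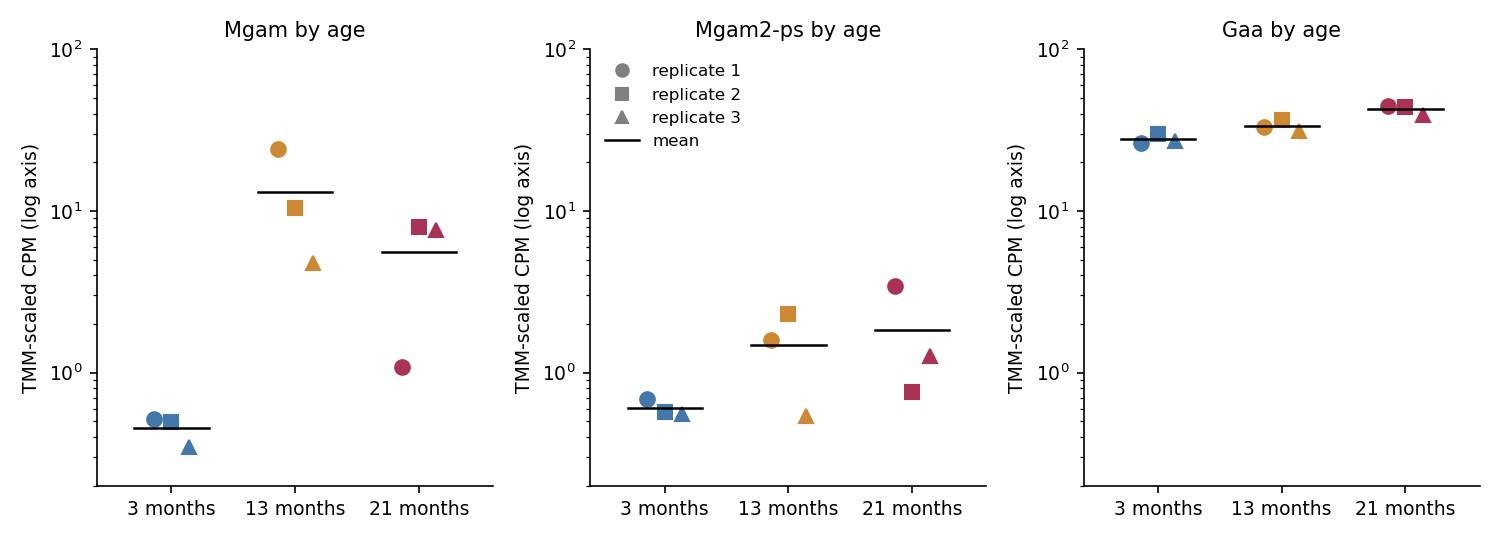
TMM-scaled CPM of Mgam, Mgam2-ps and Gaa on a log axis, by age, with 1 point per library and the mean as a bar. Mgam lies at or below 0.518 CPM at 3 months and at or above 1.08 CPM in the older libraries, and Gaa climbs from a mean of 27.7 to 42.6 CPM.

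Over all tested genes, an unadjusted p under 0.05 was reached by 7.24%, 24.4% and 15.7% in the comparisons of 13 with 3, 21 with 3 and 21 with 13 months. DESeq2 called 1.32%, 9.39% and 2.79% of the genes it gave an adjusted p, and limma-voom called 0.367%, 0.958% and 0.0187%. Of 7 alpha-glucosidase genes listed, 5 had enough reads to be tested, the pseudogene Mgam2-ps among them. At 21 against 3 months edgeR called 1 of the 5, Gaa, as higher and 0 as lower, where 2.02% of all tested genes were called. In that comparison 3 had an unadjusted p under 0.05, DESeq2 called 2 and limma-voom 1, and the median log2 fold change was 0.62, beside 0.01 for all genes. At 13 against 3 months edgeR called 0 of 5, with 2 at an unadjusted p under 0.05, 1 called by DESeq2 and 0 by limma-voom, and the median was 0.28 beside 0.01. At 21 against 13 months edgeR called 0, with 1 at an unadjusted p under 0.05 and 0 called by DESeq2 or limma-voom, and the median was -0.05 beside 0.00. Ganab, which trims glucose from new glycoproteins, stood at 85.7, 84.6 and 79.2 CPM at 3, 13 and 21 months, and its relative Ganc at 9.92, 10.9 and 10.5. Sis, sucrase-isomaltase, was at 0 in all libraries, and Treh, trehalase, had 8 reads in 21-month replicate 1 only.

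Genes of glycogen synthesis and breakdown, 20 of 22 tested, gave 0 edgeR calls in every comparison, where 0.454%, 2.02% and 0.00622% of all tested genes were called. At 13 against 3 months 2 had an unadjusted p under 0.05 and 0 were called by DESeq2 or limma-voom, with a median of -0.04 beside 0.01 for all genes. At 21 against 3 months 4 had an unadjusted p under 0.05, DESeq2 called 3 and limma-voom 0, and 15 of 20 had a positive log2 fold change, beside 50.7% of all genes, with a median of 0.26 beside 0.01. At 21 against 13 months 2 had an unadjusted p under 0.05, DESeq2 called 1 and limma-voom 0, and the median was 0.31 beside 0.00.

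The glycogen genes of smallest p against 3 months were Ppp1r3c and Ppp1r3b, regulatory subunits that bring protein phosphatase 1 to glycogen, and against 13 months Pygl and Stbd1. Ppp1r3c stood at 5.67 ± 0.812 CPM at 3 months (SD, n = 3 libraries), 8.64 ± 1.33 at 13 months and 12.1 ± 3.75 at 21 months. Its log2 fold change from 3 months was 0.61 (edgeR adjusted p = 0.604) and then 1.10 (0.0528). Ppp1r3b stood at 1.32 ± 0.591, 2.80 ± 0.698 and 3.97 ± 1.34 CPM, with 1.10 (0.498) and 1.60 (0.0588). At 21 against 3 months 6 of 20 alternatives called Ppp1r3b and 14 did not. The 6 were DESeq2 (0.00294) and edgeR with library totals (0.00946), no low-count filter (0.0324), a replicate block (0.0233), or without 21-month replicate 1 (0.0346) or replicate 3 (0.0360). Without any 1 of the 3-month libraries the edgeR adjusted p of Ppp1r3b was 0.136 to 0.242. For Ppp1r3c 4 of 20 alternatives gave a call and 16 did not. The 4 were DESeq2 (0.00242) and edgeR with library totals (0.00986), no low-count filter (0.027) or without 21-month replicate 3 (0.00878). Ppp1r3c had a log2 fold change of 0.49 with replicate 3 as the only 21-month library. That library, at 7.95 CPM, lay within the 13-month range of 7.69 to 10.2 CPM.

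Pygl, the liver form of glycogen phosphorylase, had 10.3, 12.6 and 2.68 CPM in the 21-month libraries, in the order of replicates 1 to 3, and 1.84 to 2.62 CPM in the other 6 libraries. Its log2 fold change at 21 against 13 months was 1.999 ± 0.468 (SE, edgeR adjusted p = 0.196), and 0.33 (0.999) with replicate 3 as the only 21-month library. It was called at 2.41 (0.00259) without replicate 3. Replicates 1 and 2 are those that carry prostate or fat transcripts, whose share in this value was not tested. Stbd1, a starch-binding protein of glycogen, differed by 0.57 (0.278).

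The minor spliceosome list, 11 of 11 tested and including Rnpc3, gave 0 edgeR calls in every comparison, beside 0.454%, 2.02% and 0.00622% of all tested genes, so 0 of 11 is near the background. For the comparisons of 13 with 3, 21 with 3 and 21 with 13 months, an unadjusted p under 0.05 was reached by 0, 1 and 0 genes, and DESeq2 and limma-voom called 0 throughout. The median log2 fold changes were 0.07, -0.12 and -0.02, beside 0.01, 0.01 and 0.00 for all genes. The smallest p-values at 13 against 3 months belonged to Armc7 at 0.37 (adjusted p = 0.761) and Rbm48 at 0.27 (0.820), which act together in minor intron splicing. At 21 against 3 months Armc7 differed by 0.60 (0.117) and Snrnp35, of the U11 particle, by -0.39 (0.305). At 21 against 13 months Rbm48 differed by -0.39 (0.323) and Snrnp35 by -0.46 (0.346).

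The genes whose log2 CPM ran most like that of Amy1 over the 9 libraries were ranked among 11071 genes with a mean log2 CPM of at least 1. Their points share the same 9 libraries, and the split between 3 months and the older ages sets most of each value, so these are descriptions without a test. Pearson's r was 0.973 for Pcdhga11, a gamma protocadherin of cell adhesion, 0.971 for Dlg2, a membrane scaffold protein, and 0.963 for Bcl2, which blocks cell death. Cyfip2, of the actin-regulating WAVE complex, had 0.953, Gimap3, an immune GTPase, 0.942, and Tmem8 0.936. Sptlc3, a subunit of the first enzyme of sphingolipid synthesis, had 0.936 and Pard6g, a cell polarity protein, 0.925. Of the 11071 ranked genes, 15 had an r over 0.9. Mgam was at rank 18 with 0.892, and Rnpc3 at rank 537 with 0.669 (Spearman's rho 0.567).

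The genes most like Amy1 spanned a smaller range than Amy1 itself. Dlg2 stood at 5.18, 5.89 and 6.49 CPM at 3 months, 20.9, 18.1 and 10.1 CPM at 13 months and 11.6, 17.8 and 21.8 CPM at 21 months. As for Amy1, its lowest older library was 13-month replicate 3. Bcl2 had means of 12.8 ± 1.44 CPM at 3 months (SD, n = 3 libraries), 20.07 ± 1.97 at 13 months and 20.04 ± 1.47 at 21 months. Pcdhga11 had means of 1.449 ± 0.159, 2.73 ± 0.401 and 2.603 ± 0.345 CPM.

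The genes that ran most opposite to Amy1 were Atad2, a chromatin ATPase, with an r of -0.967, Cdca2, a phosphatase partner on mitotic chromosomes, with -0.952, Gdpd2, a glycerophosphodiester phosphodiesterase, with -0.948, and Lamb3, a chain of the basement membrane laminin of epithelia, with -0.945. Among the ranked genes, 21 lay below -0.9. Gdpd2 stood at 15.6, 9.22 and 10.5 CPM at 3 months, 0.887, 1.2 and 3.49 CPM at 13 months and 0.483, 1.01 and 0.636 CPM at 21 months. Its highest older library was 13-month replicate 3, the lowest for Amy1. Cdca2 had means of 4.25 ± 0.637, 1.502 ± 0.131 and 1.44 ± 0.136 CPM at 3, 13 and 21 months (SD, n = 3).

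**Figure D5:**
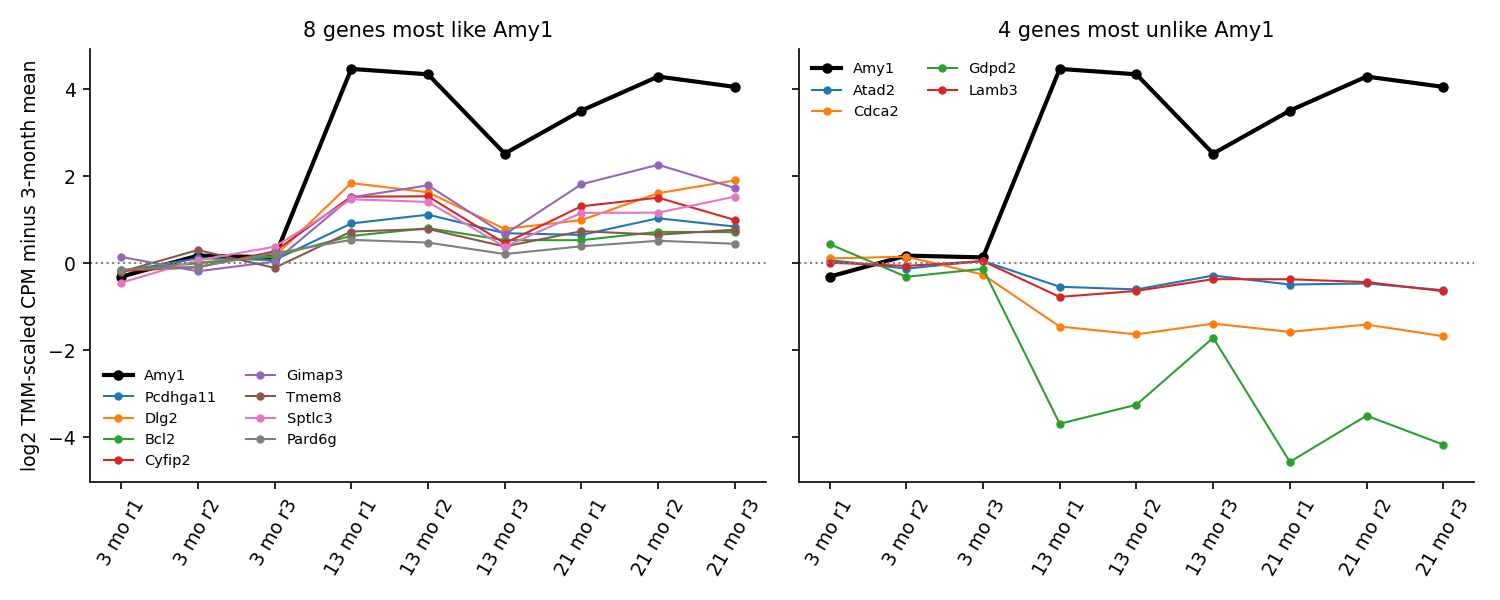
Log2 TMM-scaled CPM minus the 3-month mean of each gene, in the 9 libraries, for Amy1 (black) with the 8 genes most like it (left) and the 4 most unlike (right); lines only join the points of 1 gene and carry no order among replicates. Amy1 spans a wider range than its likest genes, and 13-month replicate 3 is the low point of Amy1 among the older libraries.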

How the data were processed

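Total RNA of mouse seminal vesicle was extracted with TRIzol and sequenced for long noncoding RNA, per the labels' protocols, from 3 libraries at each of 3, 13 and 21 months. The authors deposited raw read counts per Ensembl gene, made with HISAT2 and featureCounts on GRCm38 (mm10), per the submitters' processing notes. Tool versions, strand setting and how reads with several matching places or genes were counted are not given in the sources used here. Library totals ran from 16536160 to 24791943 counts, so 3 counts are worth 0.121 to 0.181 CPM in 1 library. All 9 columns were mapped to samples by name, and 0 other columns were left unused. Of 53379 identifiers, 53274 were matched to GENCODE M21, which gave symbols, exons and coordinates. RefSeq gave the promoter sequence.

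The filterByExpr function of edgeR 4.0.16 (R 4.3.3; minimum count 10, minimum total 15) kept 16067 genes, both members among them. One model with a coefficient for each age took in all 9 libraries, and ages were tested by quasi-likelihood in edgeR (residual degrees of freedom 6, prior 3.63). Library sizes were scaled by TMM, the Benjamini-Hochberg adjustment ran over every gene tested, and a gene was called at an adjusted p under 0.05. The SE of a log2 fold change is its size over the square root of its F statistic. Log2 CPM for the ranking by likeness used a prior count of 2, and the ranking left out genes with predicted, RIKEN, clone or mitochondrially encoded names. Sequence windows were compared in Python 3.11.15 with biopython 1.88.

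The members, lists and alternatives were chosen with earlier results of these data known. Named genes are the amylase family, genes within 500 kb of Amy1, called members of each list or else the 2 of smallest p, and the 8 genes most and 4 least like Amy1. Mgam at 21 against 3 months was added to them. Alternatives were DESeq2 1.42.0, limma-voom (limma 3.58.1), a robust spread, size factors of DESeq2 in the edgeR fit, library totals alone, 2 low-count filters, TMM computed after dropping the 50 most abundant genes, a replicate block, and fits of only the 6 libraries compared. Each library was left out in turn, and replicate 3 was taken as the only 21-month library, which assumes that its spread matches that of other ages.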

Additional observations from a re-analysis of the deposited data

How the results depend on the processing

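Amy1 at 13 against 3 months, the comparison it was chosen on, ran from 3.69 to 4.40 on the log2 scale over 20 alternatives and over the fits that left out 1 library. Its choice on these libraries fixes the direction, so that range is no sign of stability. Amy1 at 21 against 3 months ran from 3.796 to 4.55 and lost its call without 3-month replicate 1, 2 or 3, with 3.796 to 4.17 over all fits that left out 1 library. The cause was not tested. Amy1 at 21 against 13 months, at -0.02 in the reported fit and called under no alternative, turned positive with limma-voom (0.17), library totals alone (0.50), at least 10 counts in all 9 libraries (0.0023), a replicate block (0.073) and 21-month replicate 3 alone (0.062), and ran from -0.43 to 0.28 when 1 library was left out. Rnpc3 was called under 1 setting only, library totals alone at 21 against 3 months (0.96). From 13 to 21 months it was -0.14 with 21-month replicate 3 alone and -0.038 to 0.15 when 1 library was left out. With library totals Snrnp35 turned to 0.21 against 3 months and 0.085 against 13 months at 21 months, and Rbm48 turned to 0.18 in the latter comparison.

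In the comparisons of 13 with 3, 21 with 3 and 21 with 13 months, the called genes numbered 73, 325 and 1 in the reported fit, 211, 1503 and 420 with DESeq2, and 59, 154 and 3 with limma-voom. With library totals alone 5695 and 1240 were called in the comparisons with 21 months. Over the fits that left out 1 library the counts ran from 1 to 150, 0 to 2349 and 0 to 1244.

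Replicates with the same number did not deviate together (correlations of -0.17 to 0.208, with the same number correlating best in 7 of 18 cases of 1 library against another age), so the labels' numbers were not used as pairs. The replicate block gave 45, 442 and 3 called genes, and left Amy1 at 21 against 3 months called at 3.98 (edgeR adjusted p = 0.0180) and Rnpc3 uncalled in each comparison. Mgam had no value under the filter of at least 10 counts in all 9 libraries. Depth limits the amylase genes at 0 to a bound.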
